A study of Caenorhabditis elegans with 18 samples.

Results

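Small RNAs (sRNAs) were compared between young mothers of the Caenorhabditis elegans mutant rde-11(hj37) and young mothers of the wild-type strain N2. The genes described are those with a mean of at least 10 reads per 1000000 reads of the library (RPM) over the 4 libraries of this experiment, which were 7855 of the 42048 genes listed. The remaining genes were left out of the tests, and 30870 of the listed genes had a read in at least 1 of the 4 libraries. At the edge of the rule, K09F6.6 entered with a mean of 10.004 RPM and uev-1 stayed outside with 9.99. A gene that is low in one strain passed this rule only through the other strain, so it had to differ.

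Both groups were whole worms grown at 20 C on HT115 bacteria carrying the L4440 vector, and each group held 2 libraries. The mutant group carried the hj37 allele of rde-11 and the control group was N2, with no further allele, transgene or agent in the labels. The nature of the hj37 lesion is not given in the sources used here, nor is it stated whether the replicates came from separate cultures, so the p-values measure only the spread between these libraries. In all, the study held 18 libraries in 9 groups, and its other sRNA libraries came from mixed populations of N2 and of meg-3 meg-4 mutants on NA22 bacteria.

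RDE-11 is a zinc finger protein that acts with RDE-10 in RNA interference (RNAi). The pair associates with RNAs targeted by an Argonaute and is known for its part in amplification, in which RNA-dependent RNA polymerases copy a targeted transcript into many secondary siRNAs of the 22G class. In N2 worms amplification also runs on the worm's own genes. It is primed, among other routes, by 26G siRNAs bound to the Argonaute ERGO-1, whose known targets include recently duplicated genes and noncoding RNAs. MicroRNAs and piRNAs are made by other routes, the former by Dicer from hairpins and the latter from short transcripts of their own genes. The RNA was treated with 5' polyphosphatase, per the labels, which lets triphosphorylated 22G siRNAs enter the library beside microRNAs and piRNAs. Strand was not given, so an sRNA is described as mapping to a gene.

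Total reads were 4258187 and 4852083 in N2 and 4062906 and 4926941 in rde-11, which makes 1 read worth 0.203 to 0.246 RPM. Across tested genes the replicates correlated at 0.987 in N2 and 0.986 in rde-11, and libraries of different strains at 0.919 to 0.947. The replicates of each strain differed by more than sampling noise, with a chi-square per degree of freedom of 4.49 and 5.88. MicroRNAs with restricted activity, used to compare stage and tissue content, had sums that overlapped between the groups. The mir-35 family of oocytes and embryos summed to 9551 and 9778 RPM in N2 and to 9980 and 9729 RPM in rde-11, and 0 of its 7 tested members of 8 were called. The 8 microRNAs of muscle, neurons, glia, intestine and later stages summed to 8873 and 7803 RPM in N2 and to 8417 and 8037 RPM in rde-11, with 0 of 5 tested called. In this list mir-124, mir-234 and lsy-6 were under the filter, at 2.89 to 11.08 RPM in every library. In whole worms, fewer cells of a type and less RNA per cell cannot be told apart.

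sRNAs mapping to rde-11 itself were 658 and 623 RPM in N2 and 773 and 711 RPM in the mutant. The 2 groups did not overlap, and the log2 change of 0.21 (SE 0.088, limma adjusted p = 0.107) did not pass the test. An sRNA level does not check the mutation, because the lesion and the position of the sRNAs on the gene are not known here. Its partner rde-10 had few sRNAs, at 16.2 and 17.3 RPM in N2 and 14.5 and 16.03 RPM in rde-11 (log2 -0.13, adjusted p = 0.627). sid-1, the channel that imports double-stranded RNA, had 674 and 638 RPM in N2 and 777 and 712 RPM in rde-11 (log2 0.18, adjusted p = 0.158).

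On the RPM scale, sRNAs of rde-11 mutants were lost steeply at a limited set of genes and gained mildly at many. With TMM or edgeR more genes were lower than higher. With limma on log2(RPM + 1) and a Benjamini-Hochberg adjusted p below 0.05, 1435 genes were higher, 18.3% of those tested, and 672 were lower, 8.56%. The typical gain was small, with a median log2 of 0.65 among higher genes, against -0.80 among lower genes. A change of at least 4-fold was reached by 8 of the higher and 48 of the lower genes, and one of at least 2-fold by 133 and 244. Lower genes took 21.03% of N2 reads and 13.9% of rde-11 reads, while higher genes took 10.8% and 16.9%. RPM values are shares of a fixed total, and the median log2 of all tested genes was 0.163. With library sizes corrected by the TMM method, which trims extreme genes, this median was 0.0488. After TMM 779 genes were higher (9.92%) and 853 lower (10.9%), so that higher genes made up 47.7% of calls in place of 68.1%. edgeR's quasi-likelihood test on the recovered reads called 722 higher (9.19%) and 1020 lower (13%). All 672 lower genes and 779 of the 1435 higher genes were called under both RPM and TMM scaling.

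**Figure D1:**
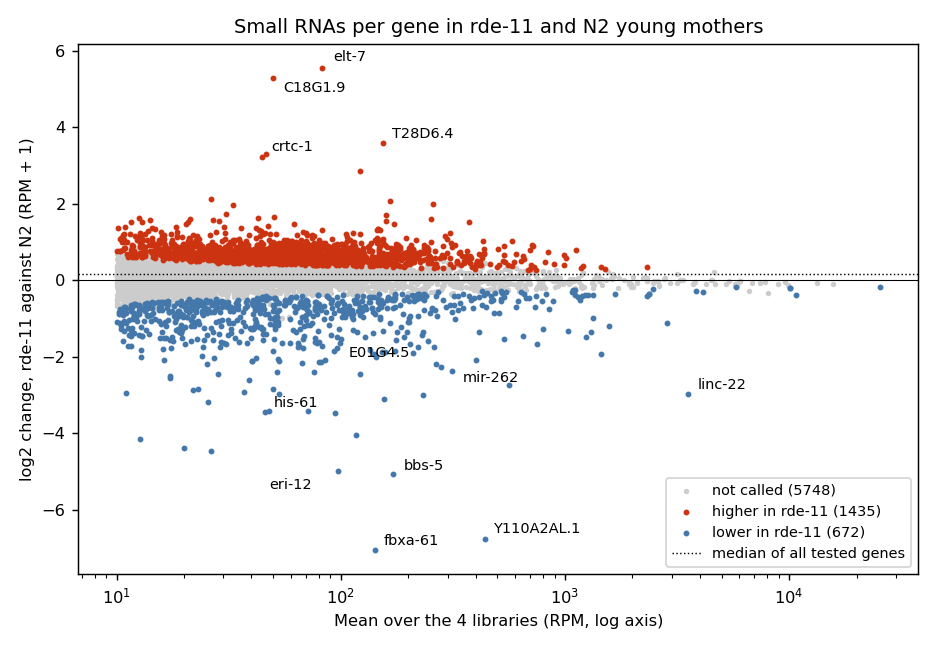
log2 change of sRNAs in rde-11 against N2 for each of the 7855 tested genes (vertical axis, log2 of RPM + 1) against the mean RPM over the 4 libraries (horizontal log axis), with higher genes in red, lower genes in blue and the median of all genes dotted. The 672 lower genes reach down to -7.06 and include abundant genes such as linc-22, while most of the 1435 higher genes lie close to the uncalled genes.

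The number of higher genes rested on single libraries. It was 232 without N2 replicate 1, 427 without rde-11 replicate 2, 1114 without N2 replicate 2 and 1394 without rde-11 replicate 1, and the number of lower genes was 345, 463, 473 and 574 in the same order. Gained genes also differed between replicates of a strain. The median log2 of replicate 2 over replicate 1 was 0.19 in N2 and 0.21 in rde-11 for higher genes, 0.05 and 0.04 for all genes, and -0.03 and -0.02 for lower genes. The part of this replicate difference in the gains was not tested.

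Targets of ERGO-1 class siRNAs lost sRNAs in the mutant. Of 33 genes in this list 29 were in the table and 24 passed the filter, and of these 12 fell and 0 rose, beside the 8.56% of all genes that fell and the 18.3% that rose. The median log2 of the 24 was -0.47, or -0.63 relative to the median of all genes, and -0.59 after TMM. With TMM 13 fell, and 11 or 12 fell when any 1 library was left out. The list summed to 15883 and 16100 RPM in N2 and to 10200 and 9821 RPM in rde-11.

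The most abundant target that fell was Y17D7B.4, with 2294 and 2291 RPM in N2 and 592 and 611 RPM in rde-11. Its libraries were close within each strain and far apart between them (log2 -1.93, SE 0.073, adjusted p = 7.87e-07). E01G4.5 had the largest change of the list, from 388 and 485 RPM in N2 to 94.0 and 92.6 RPM (log2 -2.21, SE 0.13, adjusted p = 1.19e-05). Y43F8B.9, a target of low level, went from 66.9 and 69.5 RPM to 16.7 and 14.8 RPM (log2 -2.05, adjusted p = 3.11e-05). In each of these 3 genes both N2 libraries lay above both rde-11 libraries. They are coding genes known by sequence name only, and no role is given to them here.

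Pseudogenes and noncoding genes were lost beside coding genes. The pseudogenes W04B5.1 and W04B5.2 fell by 1.54 and 1.29 on the log2 scale, from 758 and 828 RPM and from 1158 and 1107 RPM to at most 483 RPM in rde-11. K02E2.11 went from 355 and 312 RPM to 94.3 and 82.0 RPM (log2 -1.91), and K02E2.6 from 1742 and 1818 RPM to 884 and 922 RPM (log2 -0.98). K02E2.11 overlaps K02E2.13, so the reads of this pair cannot be assigned with certainty. C44B11.6 fell from 1410.2 and 1559 RPM to 575 and 603 RPM (log2 -1.33), and the pseudogene ZK402.3 from 251 and 275 RPM to 97.5 and 79.97 RPM (log2 -1.56). Smaller losses were seen at the noncoding gene H09G03.1 (log2 -0.92), at Y37E11B.2 (-0.74) and at C18D4.6 (-0.51), and the last was not called without rde-11 replicate 2 or without either N2 library.

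The other 12 tested targets did not pass the test. eri-6, part of a helicase gene that acts in the ERGO-1 pathway, had 3933 and 3814 RPM in N2 and 3799.5 and 3583 RPM in rde-11 (log2 -0.07, adjusted p = 0.413). sosi-1, which overlaps eri-6, had 1363 and 1403 RPM in N2 and 1438 and 1484 RPM in rde-11 (log2 0.08, adjusted p = 0.439). C08F11.7, F55C9.3, F55C9.5, F52D2.6 and eri-7 lay between -0.16 and 0.07. The remaining 5 tested targets, Y17D7C.1, ZK402.1, W05H12.2, C36A4.11 and K06B9.6, lay between -0.43 and -0.29, and W05H12.2 was called lower after TMM. The last pair had identical values in every library, as genes of near-identical sequence can, so they count as 1 measurement. Of the 5 targets under the filter, F39F10.4 had 11.74 and 13.8 RPM in N2 and 4.92 and 3.86 RPM in rde-11.

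**Figure D2:**
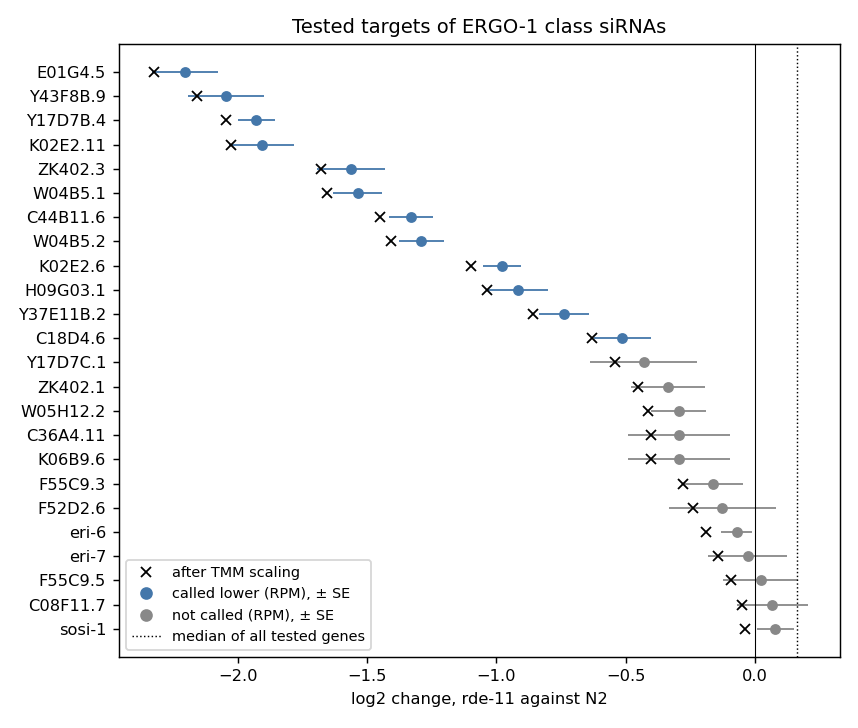
log2 change in rde-11 against N2 of the 24 tested targets of ERGO-1 class siRNAs, as points with the standard error of the limma fit (blue, called lower; grey, not called), with crosses for the value after TMM scaling and the median of all genes dotted. The 12 called targets run from -2.21 at E01G4.5 to -0.51 at C18D4.6, and the 12 others from -0.43 to 0.08.

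Long intergenic noncoding RNAs (lincRNAs) lost sRNAs too. Of 161 lincRNA genes 33 were tested, 18 fell and 3 rose, with a median log2 of -0.38 (-0.50 after TMM, with 20 lower and 1 higher). Of all genes 8.56% fell and 18.3% rose (10.9 and 9.92% after TMM). They summed to 29880 and 29665 RPM in N2 and 18859 and 18454 RPM in rde-11. linc-22 carried much of this, with 6534 and 6094 RPM in N2 and 799 and 794 RPM in rde-11 (log2 -2.98, SE 0.067, adjusted p = 3.27e-08). The reads of linc-22 cover other annotated genes, and overlapping 21ur-15566, 21ur-9719 and F47E1.19 fell with it, to log2 changes of -2.56, -2.44 and -2.83. linc-29, the most abundant lincRNA, changed less, from 11981 and 12290 RPM to 9502 and 9173 RPM (log2 -0.38, adjusted p = 0.000655). linc-61 went from 27.01 and 33.2 RPM to 2.95 and 6.49 RPM (log2 -2.51), linc-46 from 50.02 and 31.9 RPM to 12.8 and 12.99 RPM (-1.56) and linc-15 from 144 and 141 RPM to 47.01 and 52.97 RPM (-1.50).

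Single protein-coding genes lost nearly all of their sRNAs. fbxa-61, of the F-box A family of candidate adaptors for protein ubiquitination, had 265 and 299 RPM in N2 and 1.23 and 1.01 RPM in rde-11 (log2 -7.06, SE 0.16, adjusted p = 3.27e-08). Y110A2AL.1 had 877 and 869 RPM in N2 and 10.1 and 4.87 RPM in rde-11 (log2 -6.76, SE 0.25, adjusted p = 6.89e-07). In both genes the N2 libraries lay far above the rde-11 libraries. eri-12, named for enhanced RNAi, went from 179 and 200 RPM to 4.68 and 5.28 RPM (log2 -4.997, SE 0.15, adjusted p = 1.92e-07). clec-166, a C-type lectin gene, kept 2 reads in each rde-11 library against 88 and 143 in N2, a ratio of 57.0 with a 95% exact binomial interval of 21.96 to 211 that covers counting error only.

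Of the 12 largest losses 2 were genes of the cilium, a grouping made after their values were seen. bbs-5, a subunit of the BBSome that moves membrane proteins in cilia, fell from 370 and 294 RPM to 8.37 and 9.54 RPM (log2 -5.06, SE 0.16, adjusted p = 2.05e-07). Its overlapping neighbour R01H10.7 had 101 and 106 RPM in N2 and 111 RPM in each rde-11 library (log2 0.11, adjusted p = 0.536). arl-13, a small GTPase of the ciliary membrane, fell from 255 and 187 RPM to 16.5 and 9.13 RPM (log2 -4.04, SE 0.25, adjusted p = 1.57e-05). The noncoding gene Y37E3.26 lies over arl-13 and had 5 and 3 reads in rde-11 against 184 and 169 in N2, a ratio of 43.5 (95% exact binomial interval 21.9 to 102).

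Some of the losses were shared by adjoining genes. Y47H9C.9 went from 43.7 and 59.1 RPM to 1.48 and 1.22 RPM (log2 -4.47), and fbxa-216 beside it from 90.2 and 85.7 RPM to 6.65 and 8.12 RPM (log2 -3.41). On the other side Y47H9C.12, under the filter, had 9.39 and 9.27 RPM in N2 and 3.20 and 1.22 RPM in rde-11. The histone gene his-61 went from 94.6 and 74.8 RPM to 8.37 and 5.48 RPM (log2 -3.45), and the next gene, his-62, from 19.3 and 21.8 RPM to 6.15 and 4.06 RPM (log2 -1.84). The gene before his-61, rod-1, rose from 119 and 162 RPM to 223 and 315 RPM (log2 0.93, adjusted p = 0.00882), and exo-3, beside fbxa-216, did not pass (log2 0.39, adjusted p = 0.127). Y44E3A.1 and the zinc finger gene ztf-31 complete the 12 largest losses, at log2 -3.48 and -3.43. The 12 were picked from the same 4 libraries that every alternative setting reuses, so agreement among settings is not independent support. All of these 12 were called lower in each of the 13 alternative settings tried.

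**Figure D3:**
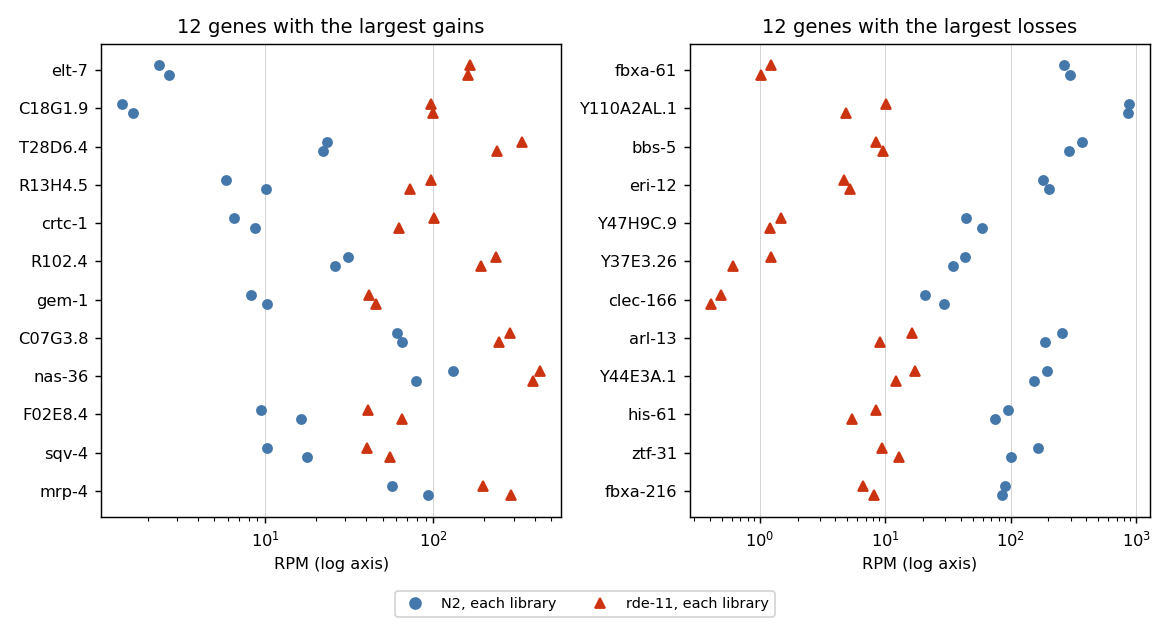
RPM in each library (horizontal log axes) for the 12 genes with the largest gains (left) and the 12 with the largest losses (right), with N2 as blue circles and rde-11 as red triangles, replicate 1 above replicate 2. Genes were picked only where the groups did not overlap. Of all 7855 tested genes, 3795 had both rde-11 libraries above both N2 libraries and 1515 had both below. The largest gaps are at elt-7 (2.35 and 2.68 against 164 and 162 RPM) and fbxa-61 (265 and 299 against 1.23 and 1.01 RPM).

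Histone genes, which package DNA and whose transcripts mostly lack a poly(A) tail, fell in most tested cases. Of 72 listed 14 were tested, of which 10 fell and 0 rose (11 and 0 after TMM), with a median log2 of -0.92. The 71.4% that fell stands beside 8.56% of all genes. The listed genes summed to 3206 and 3370 RPM in N2 and 2923 and 2880 RPM in rde-11. Beside his-61 and his-62, his-3 went from 20.2 and 22.3 RPM to 4.43 and 4.67 RPM (log2 -2.001, adjusted p = 0.000292) and his-4 from 30.8 and 28.4 RPM to 10.8 and 8.52 RPM (log2 -1.53, adjusted p = 0.000705). The others that fell were his-31, his-37, his-41, his-60, his-67 and his-68, at log2 -0.55 to -1.51. Members of this family are near-identical in sequence, so their reads may be split or shared among copies. Without N2 replicate 1, 7 of the 14 fell.

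The F-box B and C families, like F-box A, encode candidate adaptors of ubiquitin ligases and are large and recently expanded in this worm. Of 161 genes 50 were tested, 16 fell and 0 rose (21 and 0 after TMM), 32% beside the 8.56% of all genes, with a median log2 of -0.28 that was -0.40 after TMM. fbxb-51 went from 18.3 and 16.7 RPM to 4.68 and 6.90 RPM (log2 -1.47), fbxc-37 from 18.1 and 21.2 RPM to 8.86 and 6.09 RPM (-1.30) and fbxc-23 from 90.9 and 83.5 RPM to 38.1 and 31.9 RPM (-1.30). Without N2 replicate 1 the number that fell was 8, and without rde-11 replicate 2 it was 10. F-box A genes did not share one direction. Of 51 tested, 9 fell, 17.6% beside the 8.56% of all genes. The 8 that rose were 15.7%, near the 18.3% of all genes. After TMM 10 fell and 7 rose, where 10.9% and 9.92% of all genes did. Their median log2 of 0.09 turned to -0.03 after TMM.

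Members of several smaller families fell, where 8.56% of all genes did. Of 249 C-type lectin genes 11 were tested, 5 fell and 2 rose, the latter 18.2% and so near the 18.3% of all genes. Among those that fell were clec-41, from 17.6 and 15.3 RPM to 5.91 and 3.86 RPM (log2 -1.59), and clec-119, from 73.5 and 72.1 RPM to 30.8 and 32.7 RPM (-1.17). The number of lectin genes that fell was 3 without N2 replicate 1 and 3 without rde-11 replicate 2. Of 7 tested UDP-glucuronosyltransferase genes, which act in detoxification, 4 fell, led by ugt-64 (131 and 103 to 34.0 and 41.2 RPM, log2 -1.61) and ugt-44 (-1.44). Of 6 tested glutathione S-transferase genes 3 fell, at log2 -0.81 to -0.48, and none of the 3 was called without rde-11 replicate 2. Of 177 cuticle collagen genes 10 were tested and 3 fell, col-111 most (412 and 368 to 258 and 241 RPM, log2 -0.64), of which 1 was called without N2 replicate 1. The yolk protein genes vit-1, vit-6 and vit-2, the 3 tested of 6, all fell, by 0.95, 0.73 and 0.58 on the log2 scale, of which 1 was called when either N2 library was left out. No tested gene of these last 4 families rose.

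Receptor and signalling genes were split. Of 38 tested nuclear hormone receptor genes 7 fell and 3 rose (8 and 1 after TMM), 18.4% and 7.89% beside 8.56% and 18.3% of all genes, with nhr-64 the largest loss, from 104.04 and 94.8 RPM to 27.3 and 30.6 RPM (log2 -1.74, adjusted p = 6.43e-05). Of 1340 chemoreceptor genes 21 were tested, of which 7 fell, such as sra-35 (179 and 161 to 72.9 and 58.7 RPM, log2 -1.36), and 3 rose, such as srg-65 (5.87 and 7.01 to 12.8 and 17.05 RPM, log2 1.09). These are 33.3% and 14.3% of the 21. Without N2 replicate 1, 3 nuclear receptor and 3 chemoreceptor genes fell and 0 rose, and each other library left out gave 4 to 6 and 4 that fell. Of 7 tested neuropeptide and insulin-like genes 2 fell and 1 rose (3 and 0 after TMM), the last being flp-16 (log2 0.42). ins-5 fell from 131 and 135 RPM to 27.3 and 31.9 RPM (log2 -2.14, adjusted p = 1.87e-05), and ins-17 from 249 and 230 RPM to 85.7 and 48.5 RPM (log2 -1.88, adjusted p = 0.000677). The early zygotic gene vet-6 fell from 289 and 254 RPM to 131 and 122 RPM (log2 -1.09, adjusted p = 0.000386).

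A handful of genes gained many sRNAs that N2 nearly lacked. elt-7, which encodes a GATA factor of the intestine, had 2.35 and 2.68 RPM in N2 and 164 and 162 RPM in rde-11 (log2 5.55, SE 0.16, adjusted p = 1.41e-07). C18G1.9, the gene next to it, had 1.41 and 1.65 RPM in N2 and 97.2 and 99.0 RPM in rde-11 (log2 5.29, SE 0.18, adjusted p = 3.45e-07). The next gene on that side, C18G1.8, was under the filter and had 1.88 and 0.21 RPM in N2 and 12.6 and 12.18 RPM in rde-11. On the other side of elt-7, C18G1.1 had at most 0.74 RPM in any library. The neighbours were looked up after the values were seen.

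Other genes with gains of over 4-fold had more sRNAs in N2. T28D6.4 went from 23.5 and 22.1 RPM to 335 and 239.5 RPM (log2 3.58, SE 0.17, adjusted p = 3.6e-06), and R13H4.5 from 5.87 and 10.1 RPM to 97.2 and 73.1 RPM (log2 3.29, SE 0.24, adjusted p = 3.5e-05). crtc-1, a coactivator of the transcription factor CREB, went from 6.58 and 8.66 RPM to 101 and 62.1 RPM (log2 3.23, SE 0.24, adjusted p = 3.5e-05). R102.4 went from 30.999 and 26.2 RPM to 236 and 192 RPM (log2 2.86, adjusted p = 6.8e-06). gem-1, a gene of the monocarboxylate transporter type, went from 8.22 and 10.3 RPM to 41.3 and 45.7 RPM (log2 2.12). C07G3.8 (log2 2.06), the astacin protease gene nas-36 (1.997), F02E8.4 (1.98), the sugar nucleotide dehydrogenase gene sqv-4 (1.73) and the ABC transporter gene mrp-4 (1.70) complete the 12. They were picked as the largest changes in the same 4 libraries that every alternative setting reuses, so agreement among settings is not independent support. Each of these 12 was called higher in all 13 alternative settings.

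Genes of the RNAi machinery itself gained sRNAs, to a small extent. In 6 lists 70 of 83 genes were tested, and 31 rose and 0 fell. These lists were uptake and exogenous RNAi, polymerases and mutator genes, Argonautes, nuclear RNAi, piRNA biogenesis, and 26G and ERI genes. The share that rose was 44.3% beside the 18.3% of all genes, which were not matched for level. The median log2 was 0.35, or 0.19 relative to all genes, and 0.23 after TMM, where 18 rose (9.92% of all genes did). The count rested on 2 libraries: it was 1 without N2 replicate 1, 5 without rde-11 replicate 2, and 25 and 29 without the others. Of 11 tested nuclear RNAi genes 7 rose, but 2 after TMM, 1 in edgeR and 0 in DESeq2 or in the authors' deposited table, and 0 to 5 with a library left out. Of 9 tested 26G and ERI genes 1 rose and, in edgeR, 1 rose and 1 fell, with a median log2 of 0.15 that was -0.02 relative to all genes. The median of replicate 2 over replicate 1 was also above 0 here, at 0.12 in N2 and 0.21 in rde-11, and the part of this difference in the count was not tested.

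The gene called in every setting among the 12 largest was drh-1, a Dicer-related helicase of antiviral RNAi, with 50.3 and 60.4 RPM in N2 and 96.2 and 125 RPM in rde-11 (log2 0.98, SE 0.16, adjusted p = 0.00398). Argonaute genes with gains included ppw-1, which acts in RNAi of the germline (8.22 and 12.16 to 18.7 and 25.98 RPM, log2 1.07, adjusted p = 0.0127), and wago-1, which binds 22G siRNAs (69.98 and 95.01 to 132 and 194 RPM, log2 0.96, adjusted p = 0.0102). csr-1, an Argonaute bound to siRNAs of expressed germline genes, went from 272 and 355 RPM to 459 and 658 RPM (log2 0.82, adjusted p = 0.0114). rde-1, the primary Argonaute for supplied double-stranded RNA, went from 47.4 and 54.6 RPM to 71.6 and 103 RPM (log2 0.74, adjusted p = 0.0188). None of these 4 Argonaute genes was called without N2 replicate 1.

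Of 11 tested polymerase and mutator genes 5 rose (3 after TMM), with a median log2 of 0.46. Of 15 tested piRNA biogenesis genes 6 rose (2 after TMM), with a median of 0.23, or 0.07 relative to all genes. In RPM these were 45.5% and 40%, beside 18.3% of all genes. After TMM 9.92% of all genes rose, so the 2 piRNA biogenesis genes of 15 were near that share. ego-1, an RNA-dependent RNA polymerase of the germline, went from 147 and 191 RPM to 256 and 307 RPM (log2 0.74, adjusted p = 0.00897). rrf-3, which acts in the making of 26G siRNAs, went from 74.7 and 87.6 RPM to 119 and 150 RPM (log2 0.72, adjusted p = 0.0102). snpc-4, needed to transcribe piRNA genes, went from 52.4 and 60.4 RPM to 93.3 and 124 RPM (log2 0.92, adjusted p = 0.00518), and tofu-4 (0.80) and prg-2 (0.85) also rose. By contrast hrde-1, the Argonaute of inherited nuclear RNAi, had 775 and 820.5 RPM in N2 and 749 and 821 RPM in rde-11 (log2 -0.02, adjusted p = 0.862), and prg-1, the piRNA Argonaute, had 397 and 467 against 453 and 563 RPM (log2 0.23, adjusted p = 0.21). ergo-1 itself had 67.6 and 62.4 RPM in N2 and 72.4 and 75.9 RPM in rde-11 (log2 0.19, adjusted p = 0.313). These last 3 genes were looked up after values were seen.

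**Figure D4:**
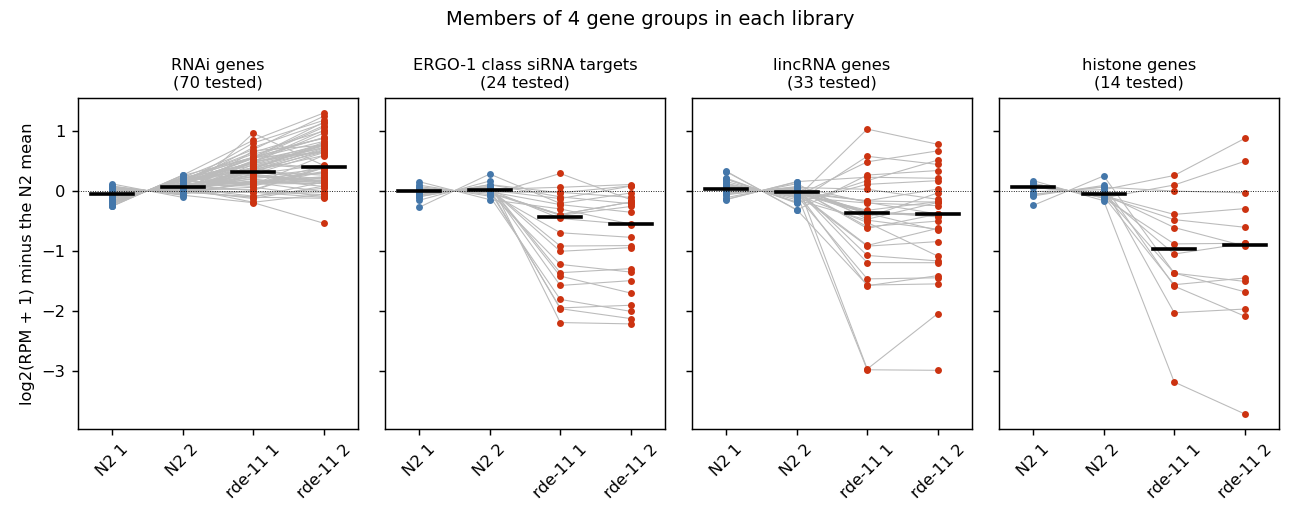
Tested members of 4 gene groups in each library, as log2(RPM + 1) minus the N2 mean of the same gene (vertical axis), with thin lines joining the values of a gene and black bars at the median of the group. The medians in rde-11 replicates 1 and 2 are 0.32 and 0.40 for RNAi genes, -0.44 and -0.56 for ERGO-1 class targets, -0.38 and -0.39 for lincRNA genes and -0.97 and -0.90 for histone genes.

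Genes of P granules, the germ granules in which many Argonautes reside, also gained. Of 14 genes 12 were tested, and 8 rose and 0 fell (5 and 0 after TMM), with a median log2 of 0.53. Of all genes, not matched for level, 18.3% rose, and 9.92% after TMM. glh-2, a helicase related to Vasa, went from 25.1 and 32.8 RPM to 56.6 and 79.97 RPM (log2 1.20, SE 0.20, adjusted p = 0.00369). meg-4, one of the paired genes deleted elsewhere in the study, went from 69.3 and 73.2 RPM to 141 and 137 RPM (log2 0.95, SE 0.12, adjusted p = 0.00095), and both genes were called in all 13 alternative settings. glh-3 (log2 0.66) and mip-2 (0.66) rose too, whereas meg-3 had 12.9 and 11.95 RPM in N2 and 15.998 and 18.1 RPM in rde-11 (log2 0.42, adjusted p = 0.115). The number that rose was 2 without N2 replicate 1 and 2 without rde-11 replicate 2.

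Name families were ranked by their share of higher genes on the RPM scale, where 18.3% of all genes were higher. That share depended on level, and families were not matched for it. With genes split into 5 groups by mean RPM, 6.68% were higher in the lowest group and 25.3% in the highest. The group next to the highest had 27.9%. After TMM the lowest and highest groups had 3.95% and 15.5%. At the head of 72 families with at least 8 tested members, 7 of 9 klp genes (kinesin motors), 9 of 13 prp genes (pre-mRNA splicing), 5 of 9 ddx genes (RNA helicases), 6 of 13 rbm genes (RNA binding), 12 of 28 vps genes (vacuolar sorting) and 11 of 26 npp genes (nuclear pore) rose, and 0 of any of them fell. After TMM, where 9.92% of all genes were higher, the counts were 3, 7, 3, 4, 4 and 6 in that order (14.3% for vps), and 1 klp gene was then lower. Examples are npp-15, from 81.3 and 103 RPM to 177 and 220 RPM (log2 1.10, adjusted p = 0.00171), ddx-19, from 43.9 and 50.9 RPM to 87.4 and 102 RPM (0.98, adjusted p = 0.0021), and prp-3, from 35.9 and 53.4 RPM to 78.0 and 95.8 RPM (0.96, adjusted p = 0.009). In these 6 families at most 1 gene each was called without N2 replicate 1 and at most 3 without rde-11 replicate 2, so their counts rest on these libraries, and the replicate difference given above was not tested here either. Ribosomal protein genes moved little, with 2 of 65 higher and 2 lower, and none of the cyp, exos, rab, vha and zipt families was called. Of 12 tested oocyte and eggshell genes 4 rose and 0 fell, whereas after TMM 0 rose and 1 fell.

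**Figure D5:**
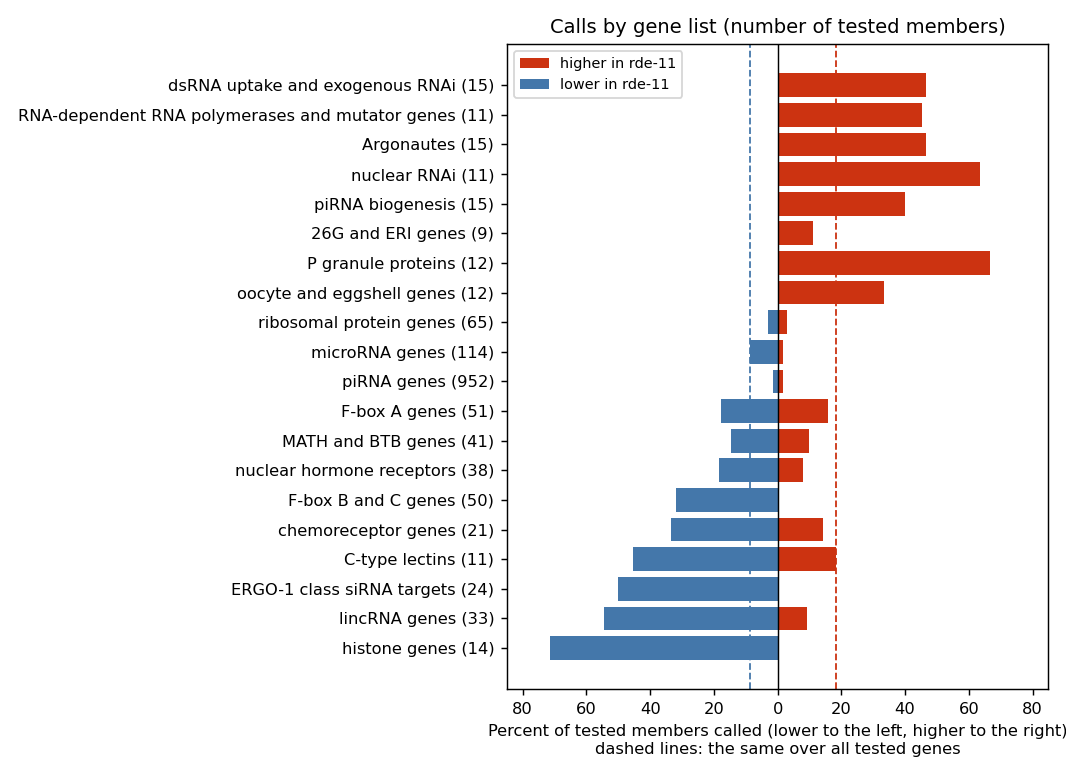
Percent of the tested members of 20 gene lists called lower (blue, to the left) or higher (red, to the right) in rde-11, with the number of tested members in brackets and dashed lines at the 8.56% and 18.3% of all tested genes. Histone and lincRNA genes reach 71.4 and 54.5% lower, and P granule and nuclear RNAi genes 66.7 and 63.6% higher on the RPM scale. The 7 of 11 nuclear RNAi genes called here were 2 after TMM and 1 in edgeR.

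Shares of reads by class of gene differed by at most 2.95 points between the means of the strains, the largest at protein-coding genes. MicroRNA genes took 20.1 and 18.7% of reads in N2 and 18.4 and 17.6% in rde-11, and piRNA genes 7.22 and 6.83% against 7.64 and 7.07%. Protein-coding genes took 59.6 and 61.6% in N2 and 62.7 and 64.4% in rde-11. Long noncoding RNA genes took 3.16 and 3.14% in N2 and 2.03 and 1.98% in rde-11, a difference of -1.14 points with an SD of 0.0169 and 0.0325 (n = 2). With 2 libraries against 2 the two-sided exact permutation test cannot go below p = 0.3333, the value it gave here. Protein-coding and microRNA shares gave the same p, and the piRNA share, whose groups overlapped, gave 0.667.

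Few individual microRNAs passed the test. Of 114 tested microRNA genes 20 fell after TMM, where 10.9% of all genes did, and 24 fell in edgeR, where 13% did. On the RPM scale 10 fell and 2 rose, 8.77% and 1.75% beside 8.56% and 18.3% of all genes. Without N2 replicate 1 the number that fell was 6. mir-262 was the largest loss, from 546 and 504 RPM to 107 and 92.8 RPM (log2 -2.39, SE 0.12, adjusted p = 4.35e-06). mir-49 fell from 34.8 and 28.2 RPM to 13.8 and 15.2 RPM (log2 -1.06) and mir-788 from 16.2 and 14.8 RPM to 8.37 and 5.89 RPM (-1.04). mir-253 rose from 86.7 and 79.1 RPM to 208 and 211 RPM (log2 1.33, adjusted p = 0.000107), but its reads were the same as those listed for F44E7.15, which overlaps it, and so are not certain to be its own. mir-71, looked up after its value was seen, fell from 2711 and 2636 RPM to 2075 and 2112 RPM (log2 -0.35, adjusted p = 0.00522) and was called in all 13 alternative settings. mir-71 overlaps the tested genes F16A11.6 and ppfr-1, so its reads may be shared. Other abundant microRNAs moved slightly, mir-80 by -0.20 and mir-82 by -0.18 on the log2 scale, and mir-795 of the let-7 family by -0.40. These were all called lower, with some alternatives not calling them. The authors' deposited change and adjusted p of mir-80 were the same as those of K01F9.6, so its reads are not certain to be its own.

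piRNA genes were almost all uncalled, with shares under those of all genes in both directions. On the RPM scale 1.79% rose and 1.37% fell, beside 18.3% and 8.56% of all genes. After TMM 9.92% of all genes rose and 10.9% fell. Of 13407 listed 952 were tested, 17 rose and 13 fell (4 and 15 after TMM), and without N2 replicate 1 none rose, and 3 to 5 rose without any other library. The largest losses, 21ur-15566 and 21ur-9719, lie in linc-22. The next pair, 21ur-10824 and 21ur-11898, share each value (62.0 and 69.5 RPM in N2, 13.8 and 14.8 RPM in rde-11, log2 -2.12) and overlap Y54F10BM.9, which itself did not pass (log2 0.12, adjusted p = 0.262). Over all tested genes, 647 had the same values as another tested gene in all 4 libraries, and 25 of these were called.

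Genes that lost sRNAs were more often of low mRNA level than genes that gained them. In the N2 young-mother mRNA libraries of the same study, from worms on the same bacteria, 208 of 564 protein-coding genes with lower sRNAs had under 100 reads in both libraries, 36.9% (95% Wilson interval 33.0 to 40.9). The share was 4.47% of the 1388 with higher sRNAs (3.50 to 5.69) and 12.8% of all 6378 tested (11.997 to 13.6). These intervals treat genes as independent and cover neither the spread between libraries nor reads shared by genes. The mRNA signal is not set per gene length, and its values are levels in N2 alone. bbs-5 had an mRNA signal of 0.85 and 0.77, Y110A2AL.1 of 0.51 and 0.60, and arl-13 of 0.74 and 0.67, whereas his-61 had 230 and 240. Among gained genes elt-7 had 2.72 and 2.04 and mrp-4 had 304 and 288. mRNA of rde-11 mutants was not measured in the libraries used here.

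Part of the lost genes were also lower in meg-3 meg-4 mutants. These 4 lines carried meg-3(ax3055) with meg-4(ax3052), meg-4(ax4310), meg-4(ax4311) or meg-4(ax4312), numbered 1 to 4 in that order, with 2 libraries each. By their titles they were mixed populations on NA22, while another label of line 2 gives young mothers. All 4 lines were compared with the same 2 N2 libraries, so calls in different lines are not independent. None of these libraries is in the rde-11 comparison, and stage and food differ. Of 601 lost genes tested in meg-3 meg-4 line 1, 247 were lower there, 41.1% beside the 13.8% of all genes in that line (3.03% were higher, and 6.35% after TMM). In the opposite direction 32 of the 601, 5.32%, were higher in line 1, and 76, 12.6%, after TMM. These 247 were 28.3% of the 874 genes lower in line 1 and tested in both. Shares of all genes are over all genes tested in a line, whether or not they were tested in rde-11. After TMM the count was 181, 30.1% beside 7.71%, and 37.2% of 486. In lines 2, 3 and 4 the RPM calls gave 51.2, 49.4 and 55.6% lower beside 52.8, 54.4 and 66.7% of all genes, near or under the background. After TMM they gave 26.8, 26.5 and 31.3% beside 9.93, 8.67 and 13.1%, and 20.8, 25.5 and 21.3% of the lost genes were higher in these lines, beside 12.2, 16.1 and 13.6% of all genes.

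Named losses divided into genes that were low in the lines and genes that were not. bbs-5 changed by -4.77, -5.72, -5.68 and -5.24 on the log2 scale in lines 1 to 4, and fbxa-216 by -3.51, -3.17, -3.46 and -3.40. arl-13, Y47H9C.9, Y44E3A.1, ztf-31 and his-61 were likewise called lower in all 4 lines under both scalings. In contrast linc-22 changed by 0.38, 0.32, 0.31 and 0.22 and Y110A2AL.1 by -0.15, 0.15, 0.20 and 0.23, neither called in RPM, and both were called higher after TMM in lines 2 to 4. The ERGO-1 targets Y17D7B.4 and E01G4.5 changed by 0.46 and -0.27 in line 1, neither called in RPM. C18D4.6, also an ERGO-1 target, was called lower in all 4 lines in RPM, at -0.95, -0.995, -0.63 and -1.16, but not in line 3 after TMM. sosi-1 and C08F11.7, targets not called in rde-11, were called lower in all 4 lines in RPM. They changed by -2.38, -2.63, -2.69 and -1.55 and by -2.54, -1.11, -2.08 and -0.66, the last of these not called after TMM. In RPM 13.8, 52.8, 54.4 and 66.7% of all genes were lower in lines 1 to 4, so a lower call was common in lines 2 to 4.

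Of the 1326 gained genes tested in line 1, 25 were higher there, 1.89% beside 3.03% of all genes, and 120 were lower, 9.05% beside 13.8%. In lines 2 to 4 on the RPM scale 77.2, 77.2 and 84.2% of them were lower beside 52.8, 54.4 and 66.7% of all genes. After TMM 5.63, 6.76 and 5.58% of them were higher beside 12.2, 16.1 and 13.6%, and 12.6, 9.35 and 12.5% lower beside 9.93, 8.67 and 13.1%. The largest gains went both ways in the lines. C07G3.8 and nas-36 were higher in all 4 lines too, at log2 1.86 to 2.03 and 1.60 to 2.31, where in RPM 3.03, 5.83, 5.83 and 5.4% of all genes were higher. F02E8.4, sqv-4 and mrp-4 were called lower in RPM in lines 2, 3 and 4, at -1.38, -0.92 and -1.06, at -1.30, -1.21 and -1.18, and at -1.07, -0.89 and -0.98. After TMM F02E8.4 and mrp-4 were called in none of these lines and sqv-4 in lines 2 and 3. T28D6.4, tested in line 3 alone, was called lower there in RPM (-1.05) and not after TMM. sRNAs at rde-11 were called higher in each line, at log2 3.28, 2.06, 1.24 and 2.30.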

How the data were processed

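sRNA libraries of rde-11(hj37) and N2 young mothers (2 each, grouped by their GEO titles) were compared. The submitters' processing notes name HISAT2, Bowtie2, DESeq2, HTSeq, cutadapt and the build ce10. Their roles, versions, annotation and strand setting are not given in the sources used here. The sRNA values are RPM, as deposited by the authors (the columns of a library share 1 total), and the mRNA values a scaled signal, as deposited by the authors. Log2 fold changes and adjusted p-values deposited by the authors served as an alternative. Dividing by the value of 1 read gave whole reads (100% within 0.02).

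limma 3.58.1 in R 4.3.3, with a mean trend, was fitted to log2(RPM + 1) of genes with a mean of at least 10, with Benjamini-Hochberg adjustment over all of them. The pseudocount makes changes of low genes smaller than their ratios. Alternatives were pseudocounts of 0.5 and 5, a mean of at least 1, no filter, TMM, edgeR 4.0.16, DESeq2 1.42.0, the authors' values, a replicate block and each library left out.

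Members and lists were chosen with earlier results of these data known. Named genes were rde-11, rde-10, meg-3, meg-4 and sid-1, the called genes of largest change with at least 10 RPM in both libraries of the higher group (12 a direction), all ERGO-1 targets, up to 12 RNAi genes, up to 4 of each other list and 3 of each of 12 families, and the most abundant 8; exceptions are stated. RefSeq (WBcel235) gave names, biotypes (99.3% matched) and overlaps only, since its build differs; gene length and chromosome were not compared. No sequences were used here. Of 149 named genes that were called, 21 overlap another tested gene, so their reads may be shared.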

Additional observations from a re-analysis of the deposited data

How the results depend on the processing

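The 1435 higher genes became 779 with TMM, 722 with edgeR, 452 with DESeq2 and 492 in the authors' deposited table, and 232 to 1394 with a library left out. The 672 lower genes became 1020 with edgeR (853 with TMM, 661 with DESeq2 and 513 in the authors' deposited table) and 345 to 574 with a library left out, fewest without N2 replicate 1. The cause was not tested. Of 149 named genes that were called, 79 were called in every alternative with a p, and no called direction reversed. The replicate block gave 2889 higher and 1047 lower genes, and rde-11 itself then passed (log2 0.21, adjusted p = 0.00303; 0.106 to 0.894 under the other alternatives). Same-numbered libraries deviated together (correlation 0.40), but 2 pairs do not establish a pairing. As a share of reads outside microRNA genes the differences were -1.46 points for long noncoding RNA, -0.381 for pseudogenes and -0.749 for other noncoding RNA. With 2 libraries a group and 1 read worth up to 0.246 RPM, small changes of genes near the filter were not detectable at this depth.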
